A study of Homo sapiens with 30 samples.

Results

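The 31 p53 target genes described here were taken by symbol from the 26801 genes of the deposited expression table. They were measured by RNA sequencing in A549, an established human lung adenocarcinoma line that is known to lack CDKN2A. The 30 libraries form 10 groups of 3, which make 5 pairs of a magnetically exposed group (EX, labelled 2H) and its unexposed group (NE). Of these pairs, 3 carry a knockout of RSRP1 and have the labels KOA, iR_KOA and iR_KOA_D3, and the other 2 are wild type with the labels iR_WTA and iR_WTA_D3. No source used here says what iR and D3 stand for, and both are left as labels. Wild-type cells without iR are not among the groups, so iR could be compared in knockout cells only. The labels do not say how the knockout was made or whether its cells are 1 clone, so genotype and clone cannot be told apart. They also do not say whether the libraries of a group came from separate cultures, and p-values then measure only the spread between these libraries.

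p53 is a transcription factor that the ubiquitin ligase MDM2 holds at a low level until DNA damage or another stress stabilises it. It binds a paired repeat in or near its target genes and raises genes for cell cycle arrest, DNA repair, apoptosis and metabolism, together with MDM2, PPM1D and CCNG1, which feed back on it. Several of these genes also answer to other factors (GDF15 and TNFRSF10B to the stress factors ATF4 and CHOP, for example), so their level is not a readout of p53 alone.

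Promoter windows were at hand for 24 of the 31 genes, as 36 windows of 300 bases that run from 250 bases before a RefSeq start site to 50 after it (GRCh38.p14). They were searched for the p53 consensus element, 2 repeats of 10 bases that each keep the fixed C and G of the core, with at most 2 mismatches over the other positions (the core's A or T positions included) and a spacer of 0 or 1 base. A match was found in 5 of the 36 windows, which belong to MDM2, FAS, AEN and DDB2, against 0.533% of all 35116 windows in the table. Since these genes were listed as p53 targets, their having more such matches is no independent result. The 130 bases that hold each match are shown because these 4 genes are the members with a match in the windows searched. Their expression differed from one another below. Capitals mark the matched element, and the stretches lie on the plus strand at chr12:68808887-68809016, chr10:88991301-88991430, chr15:88621210-88621339 and chr11:47214870-47214999.
MDM2: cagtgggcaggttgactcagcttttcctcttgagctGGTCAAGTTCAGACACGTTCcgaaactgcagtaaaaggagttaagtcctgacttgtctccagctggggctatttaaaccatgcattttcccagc
FAS: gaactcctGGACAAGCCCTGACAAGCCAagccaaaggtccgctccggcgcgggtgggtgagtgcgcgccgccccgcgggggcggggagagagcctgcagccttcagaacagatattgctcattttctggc
AEN: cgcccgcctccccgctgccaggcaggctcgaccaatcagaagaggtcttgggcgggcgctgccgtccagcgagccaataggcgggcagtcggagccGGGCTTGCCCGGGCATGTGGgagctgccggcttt
DDB2: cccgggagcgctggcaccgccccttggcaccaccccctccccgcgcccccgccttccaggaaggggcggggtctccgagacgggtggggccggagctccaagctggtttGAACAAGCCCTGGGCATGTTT

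The DDB2 element shown matched the consensus with 0 mismatches and a spacer of 1 base and ran from 6 to 26 bases after the start site. A further match with 1 mismatch overlapped it, from -5 to 15. Those of MDM2, FAS and AEN each held 2 mismatches and no spacer. The heat shock element (GAANNTTC or TTCNNGAA) was found in windows of DDB2 and TP53I3, against 13.5% of all windows, and the ATF4 and CHOP element (TGATGNAA) in that of PLK3, against 3.62%. Both strands were searched, and none of these other matches overlapped a p53 element. A match describes the letters of the window and shows no binding.

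Levels are given as FPKM as deposited, which are fragments scaled for transcript length and library size. PERP, a membrane protein of desmosomes and an apoptosis effector, was the most abundant of the 31, with a median of 108 FPKM over the 30 libraries, followed by the kinase PLK2 with 75.8 and CCNG1, cyclin G1, with 73.9. SESN1, a sestrin that restrains the growth kinase mTORC1, was the lowest with 1.94 FPKM. In all, 9 genes had a median over 30 FPKM and 12 a median under 5. All 31 passed the filter on low values, at least 1 FPKM in at least 3 libraries, which 12086 genes passed. Group means varied most for TP53INP1, an autophagy and apoptosis factor, at 8.12 FPKM in the highest group against 2.37 in the lowest, a ratio of 3.42. DDB2, the sensor of ultraviolet lesions in DNA, followed with a ratio of 3.34, while PHLDA3, an inhibitor of AKT, varied least with a ratio of 1.28.

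RSRP1 ran from 2.09 to 7.95 FPKM in the 18 knockout libraries and from 37.4 to 63.4 in the 12 wild-type libraries, so no library went against its genotype label. Among knockout groups RSRP1 averaged 2.16 FPKM in KOA_EX and 2.43 in KOA_NE, against 6.3 in iR_KOA_EX and 7.68 in iR_KOA_NE. The part of this difference in the comparisons of iR, including exposure by iR, was not tested. The leukocyte marker PTPRC lay at 0.0411 FPKM or less. The epithelial keratin KRT8 ran from 1048 to 1395 FPKM in knockout libraries and from 892 to 1029 in wild-type libraries, and KRT18 from 744 to 1111 and from 726 to 881 (medians 860 and 777). Keratin KRT19 ran from 0.0194 to 0.331 FPKM in knockout libraries and from 16.3 to 22.8 in wild-type libraries, and the endothelial cadherin CDH5 from 0.261 to 1.29 FPKM in knockout libraries and from 0 to 0.0334 in wild-type libraries. The other endothelial marker read, PECAM1, reached at most 0.0114 FPKM in any library. Among A549 markers, group means of GPX2 ran from 433 to 706 FPKM in knockout and from 87.2 to 94.6 in wild-type cells. Those of AKR1C1 ran from 246 to 338 and from 86.9 to 106. ALDH1A1 overlapped, from 3450 to 4916 FPKM in knockout and from 2743 to 3764 in wild-type libraries. These differences move with genotype, and their part in the knockout results was not tested. The epithelial marker EPCAM was low throughout, from 0.402 to 1.85 FPKM. Other markers moved with exposure or D3. The collagen gene COL1A1 averaged 2.23 FPKM in KOA_EX and 0.482 in KOA_NE, 2.37 in iR_WTA_EX and 1.24 in iR_WTA_NE, and 3.00 in iR_WTA_D3_EX and 1.74 in iR_WTA_D3_NE. It passed the limma test described below in these 3 backgrounds, while the fibroblast markers COL1A2 and PDGFRB reached at most 0.0111 and 0.0335 FPKM. The epithelial cadherin CDH1 averaged 38.4 FPKM in iR_KOA_D3_NE and 26.2 in iR_KOA_NE, and 44.0 in iR_WTA_D3_NE and 19.8 in iR_WTA_NE, and passed in both genotypes. Their part in the exposure and D3 results was not tested. CDKN2A, which encodes the MDM2 inhibitor ARF, reached at most 0.00622 FPKM. Differences below are of log2(FPKM + 1) in a limma fit to all 30 libraries, with p-values adjusted over the 12086 genes and a threshold of 0.05. This scale understates changes of low genes. In bulk RNA, a change in the share of cells that express a gene and a change in each cell cannot be told apart.

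**Figure D1:**
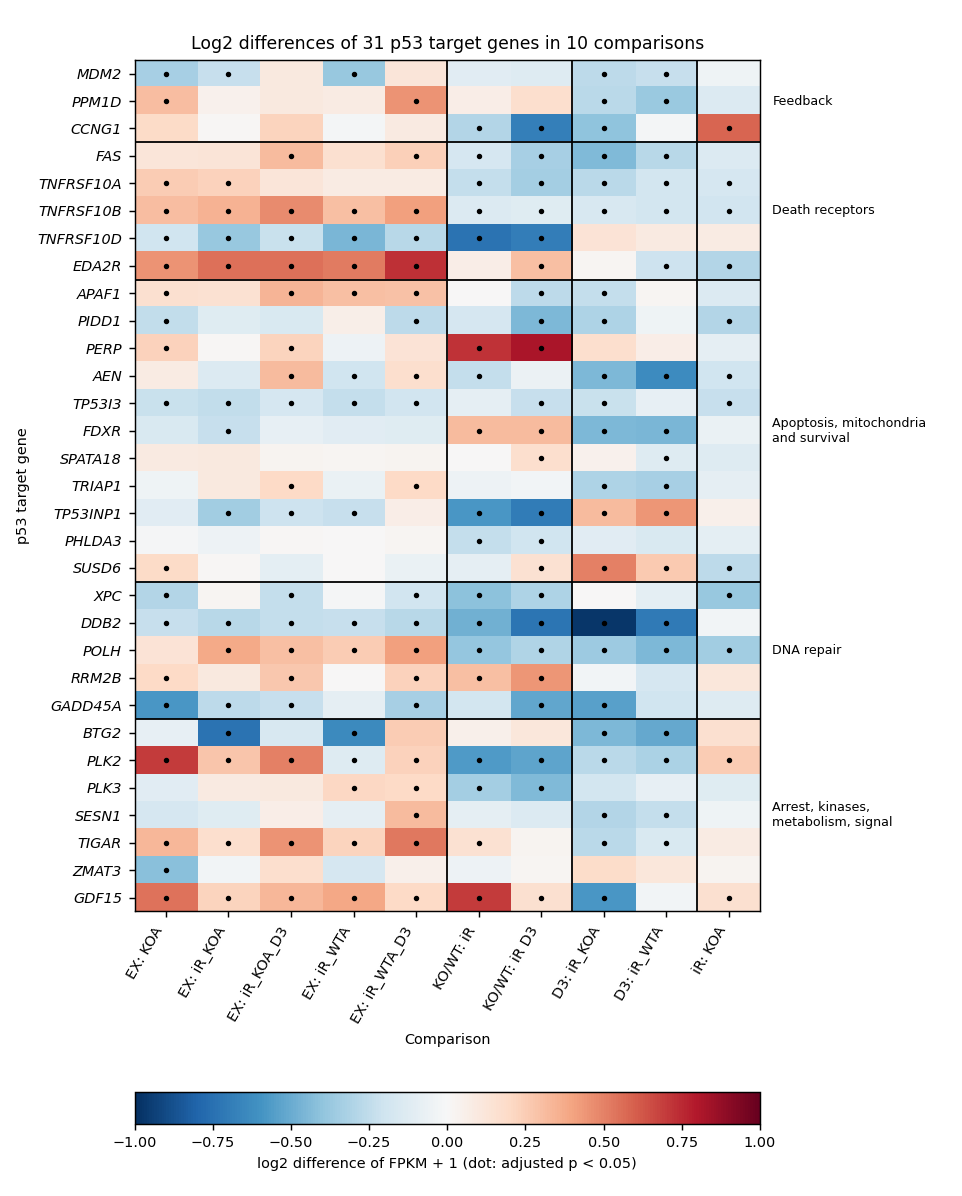
Log2 differences of FPKM + 1 for the 31 p53 target genes (rows, grouped by role) in 10 comparisons (columns: exposed over unexposed in 5 backgrounds, knockout over wild type, D3 over no D3, iR over no iR); dots mark adjusted p under 0.05. TNFRSF10B, EDA2R, TIGAR and GDF15 are red with a dot, and TNFRSF10D, TP53I3 and DDB2 blue with a dot, in all 5 exposure columns, while the 2 D3 columns are mostly blue.

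Magnetic exposure moved the p53 targets in both directions. In KOA cells 11 of the 31 rose and 8 fell, together 61.3% of them, against 41.5% of all genes tested (18.8% higher and 22.7% lower). In iR_KOA cells 7 rose and 8 fell, or 48.4%, against 35.3% of all genes (13.1% higher and 22.3% lower). In iR_KOA_D3 cells 12 rose and 6 fell, or 58.1%, against 45.1% of all genes (17.3% higher and 27.8% lower). In iR_WTA cells 7 rose and 8 fell, or 48.4%, against 28.6% of all genes (11.4% higher and 17.2% lower). In iR_WTA_D3 cells 14 rose and 6 fell, or 64.5%, against 41.8% of all genes (15.3% higher and 26.5% lower). The share of the 31 that rose, 22.6% to 45.2%, was above that of all genes in each background. The share that fell was 25.8% in KOA, iR_KOA and iR_WTA, above that of all genes, and 19.4% in both D3 backgrounds, below it. The median log2 difference of the 31 ran from -0.014 in iR_WTA to 0.139 in iR_WTA_D3, beside -0.038 and -0.051 for all genes. With median-of-ratios scaling the higher share of all called genes was 48.5% in iR_KOA and 48.0% in iR_WTA_D3, against 36.9% and 36.6% as deposited, and the members that rose and fell were 8 and 6 in iR_KOA and 15 and 6 in iR_WTA_D3. With quantile normalization it was 49.9% in iR_WTA, against 39.9%, with 8 members up and 7 down, and 48.1% in iR_KOA and 47.7% in iR_WTA_D3. Without iR_WTA_EX replicate 1, 10 members passed in iR_WTA in place of 15. These shares describe the list and were not tested.

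The 5 exposure comparisons share no library. In all 5 of them 4 targets rose (TNFRSF10B, EDA2R, TIGAR and GDF15), against 5.98% of all genes, and 3 fell (TNFRSF10D, TP53I3 and DDB2), against 7.87%. CCNG1, SPATA18 and PHLDA3 passed the threshold in none of the 5. AEN and PLK2 passed it in both directions, depending on the background.

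Of the 5 receptors of the TNF family, TNFRSF10B and EDA2R rose and TNFRSF10D fell in every background. TNFRSF10B, the DR5 receptor for the death ligand TRAIL, measured 62.1, 61.3 and 65.9 FPKM in KOA_EX, against 49.3, 52.2 and 50.2 in KOA_NE. In iR_WTA it measured 60.8, 60.6 and 58.8 FPKM with exposure, against 49.6, 48.1 and 48.5 without. Every exposed library lay above every unexposed one, here and in the other 3 backgrounds. Its log2 difference was 0.31 in KOA, 0.35 in iR_KOA, 0.47 in iR_KOA_D3, 0.30 in iR_WTA and 0.41 in iR_WTA_D3 (SE 0.037 in each, highest adjusted p = 1.41e-06).

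EDA2R, the receptor for the A2 form of ectodysplasin, showed the largest rise of the 31 in 4 of the backgrounds. It measured 9.15, 7.89 and 8.58 FPKM in iR_WTA_D3_EX, against 4.43, 4.99 and 4.80 in iR_WTA_D3_NE. In iR_KOA_D3 it had 9.14, 9.27 and 9.53 FPKM with exposure, against 5.82, 5.96 and 6.37 without. The groups did not overlap in any background, and the exposed means lay between 8.52 and 10.6 FPKM. The log2 differences were 0.45 in KOA, 0.55 in iR_KOA, 0.55 in iR_KOA_D3, 0.52 in iR_WTA and 0.73 in iR_WTA_D3 (SE 0.060, highest adjusted p = 1.1e-06). The spread among them was not called: the tests of exposure by genotype, by D3 and by iR gave -0.18 to 0.21 for EDA2R, and none passed the threshold.

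TNFRSF10D, a decoy receptor that binds TRAIL without signalling death, went the other way. It measured 17.8, 19.7 and 22.0 FPKM in iR_WTA_EX, against 28.2, 27.3 and 27.1 in iR_WTA_NE. In iR_KOA it had 11.8, 11.5 and 13.1 FPKM with exposure, against 15.5, 15.9 and 16.8 without. The exposed libraries lay below the unexposed ones in all 5 backgrounds, with log2 differences of -0.20 in KOA, -0.38 in iR_KOA, -0.22 in iR_KOA_D3, -0.46 in iR_WTA and -0.28 in iR_WTA_D3 (SE 0.065). In KOA the call was lost without KOA_EX replicate 1 (log2 difference -0.13, adjusted p = 0.147) and without KOA_NE replicate 2 (-0.16, adjusted p = 0.0851). TNFRSF10C, a decoy receptor of similar sequence, stayed at 0.697 FPKM or less, and how reads were split between the 2 is not known.

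The other death receptors were called in some backgrounds. TNFRSF10A, the DR4 receptor for TRAIL, rose in KOA (0.25) and iR_KOA (0.23), with differences of 0.08 to 0.12 elsewhere; the iR_KOA call was lost with its 2 groups fitted alone (adjusted p = 0.0584). FAS, the receptor for FAS ligand, rose in both D3 backgrounds, by 0.32 in iR_KOA_D3 and 0.24 in iR_WTA_D3. FAS measured 2.56, 2.20 and 2.31 FPKM in iR_KOA_D3_EX, against 1.62, 1.77 and 1.65 in iR_KOA_D3_NE, with no overlap.

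**Figure D2:**
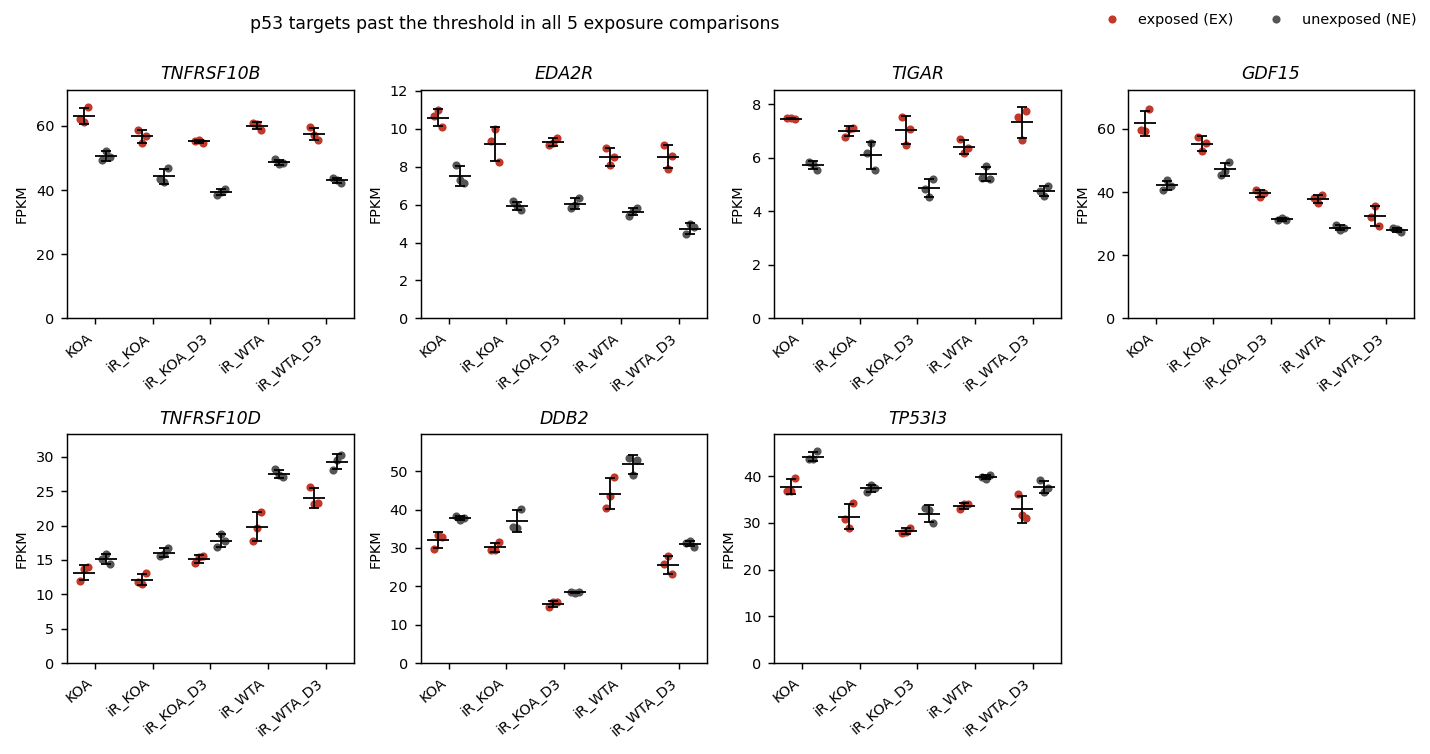
FPKM of the 7 p53 targets past the threshold in the same direction in all 5 exposure comparisons; points are libraries (red exposed, grey unexposed), bars the mean and SD of 3 libraries, and the x axis gives the background. TNFRSF10B, EDA2R, TIGAR and GDF15 lie higher with exposure, TNFRSF10D, DDB2 and TP53I3 lower, and the groups do not overlap in any panel.

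TIGAR and GDF15 were the other targets to rise everywhere. TIGAR, a fructose bisphosphatase that lowers glycolytic flux, measured 7.53, 6.67 and 7.76 FPKM in iR_WTA_D3_EX, against 4.76, 4.57 and 4.94 in iR_WTA_D3_NE. Its log2 differences were 0.33 in KOA, 0.17 in iR_KOA, 0.45 in iR_KOA_D3, 0.22 in iR_WTA and 0.53 in iR_WTA_D3 (SE 0.057). The groups never overlapped, yet the call in iR_KOA was lost without iR_KOA_EX replicate 2 (adjusted p = 0.0594), without iR_KOA_EX replicate 3 (0.0534) and without iR_KOA_NE replicate 3 (0.14, log2 difference 0.12). It was also lost there when iR_KOA_EX and iR_KOA_NE were fitted alone (adjusted p = 0.107).

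GDF15, a secreted stress cytokine, measured 59.6, 59.5 and 66.4 FPKM in KOA_EX, against 40.7, 43.7 and 42 in KOA_NE. In iR_WTA it had 38.1, 36.5 and 39.0 FPKM with exposure, against 29.7, 28.0 and 28.5 without. The exposed libraries lay above in each background, with log2 differences of 0.54 in KOA, 0.22 in iR_KOA, 0.33 in iR_KOA_D3, 0.39 in iR_WTA and 0.20 in iR_WTA_D3 (SE 0.053). With the iR_WTA_D3 groups fitted alone the adjusted p was 0.0661.

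DDB2 and TP53I3 fell in every background. DDB2 measured 29.7, 33.5 and 32.9 FPKM in KOA_EX, against 38.3, 37.3 and 37.7 in KOA_NE. In iR_WTA it had 40.4, 43.6 and 48.4 FPKM with exposure, against 53.4, 48.9 and 53 without. No exposed library reached an unexposed one, but in iR_WTA the highest exposed library lay close to the lowest unexposed one. The log2 differences ran from -0.28 in iR_KOA and iR_WTA_D3 to -0.23 in KOA and iR_WTA (SE 0.063), and the iR_WTA call was lost without iR_WTA_EX replicate 1 (log2 difference -0.17, adjusted p = 0.0784). TP53I3, a quinone oxidoreductase linked to oxidative stress and apoptosis, differed by -0.22 in KOA, -0.25 in iR_KOA, -0.17 in iR_KOA_D3, -0.24 in iR_WTA and -0.19 in iR_WTA_D3 (SE 0.053). Its call in iR_KOA_D3 was lost without iR_KOA_D3_NE replicate 1 (adjusted p = 0.064) or replicate 2 (0.0529), and that in iR_WTA_D3 with these groups fitted alone (0.0539).

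The remaining DNA repair genes were split. POLH, the polymerase that copies past ultraviolet lesions, rose in iR_KOA (0.38), iR_KOA_D3 (0.30), iR_WTA (0.25) and iR_WTA_D3 (0.41), with 0.14 in KOA (adjusted p = 0.0625). RRM2B, a subunit of ribonucleotide reductase that supplies nucleotides for repair, rose in KOA (0.20), iR_KOA_D3 (0.27) and iR_WTA_D3 (0.23), although in KOA the call was lost whichever of the 6 libraries was left out (highest adjusted p = 0.103). The RRM2B call was also lost in iR_KOA_D3 without iR_KOA_D3_EX replicate 3 (adjusted p = 0.052), and in iR_WTA_D3 without iR_WTA_D3_EX replicate 3 (0.178), iR_WTA_D3_NE replicate 2 (0.0744) or iR_WTA_D3_NE replicate 3 (0.091). XPC, which recognises lesions for nucleotide excision repair, fell in KOA (-0.29), iR_KOA_D3 (-0.24) and iR_WTA_D3 (-0.19). GADD45A, a stress sensor that binds PCNA and p21, fell most in KOA, with 7.28, 8.33 and 7.12 FPKM in KOA_EX against 12.0, 11.1 and 12.4 in KOA_NE. The groups were far apart there (log2 difference -0.58, SE 0.091, adjusted p = 1.22e-05), and it also fell by 0.26 in iR_KOA, 0.23 in iR_KOA_D3 and 0.33 in iR_WTA_D3. In iR_KOA_D3 the exposed and unexposed libraries overlapped, and with same-numbered libraries blocked as pairs the adjusted p was 0.086. GADD45A also lost its call in 4 of 6 fits that left out 1 library in iR_KOA, at most without iR_KOA_NE replicate 2 (adjusted p = 0.184), and in 4 of 6 in iR_KOA_D3, at most without iR_KOA_D3_EX replicate 2 (0.22). Under the other processing alternatives described below, its call was lost in 3 in iR_KOA and in 5 in iR_KOA_D3.

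Among the other apoptosis and survival genes, APAF1 rose in 4 backgrounds. APAF1, the scaffold of the caspase-activating apoptosome, rose in KOA (0.16), iR_KOA_D3 (0.34), iR_WTA (0.30) and iR_WTA_D3 (0.29), and differed by 0.15 in iR_KOA (adjusted p = 0.0505). TP53INP1 fell in iR_KOA (-0.35), iR_KOA_D3 (-0.21) and iR_WTA (-0.23). PIDD1, a scaffold for caspase-2, fell in KOA (-0.25) and iR_WTA_D3 (-0.26), PERP rose in KOA (0.23) and iR_KOA_D3 (0.22), and TRIAP1, a mitochondrial lipid carrier that inhibits apoptosis, rose in iR_KOA_D3 and iR_WTA_D3 (0.20 in each). FDXR, the ferredoxin reductase of mitochondria, fell in iR_KOA (-0.23), and SUSD6 rose in KOA (0.19). SPATA18, a mediator of mitochondrial quality control, differed by 0.02 to 0.10 over the 5 backgrounds, and PHLDA3 by -0.05 to 0.02. Several of these calls were lost in fits that left out 1 of the 6 libraries. APAF1 in KOA was lost in 4 (highest adjusted p = 0.141, without KOA_EX replicate 2), FDXR in iR_KOA in 3 (0.25, without iR_KOA_EX replicate 2), PERP in KOA in 3 (0.0574, without KOA_EX replicate 1) and PERP in iR_KOA_D3 in 4 (0.0955, without iR_KOA_D3_NE replicate 1). TP53INP1 was lost in 3 in iR_KOA_D3 (0.13, without iR_KOA_D3_NE replicate 3) and in 3 in iR_WTA (0.152, without iR_WTA_NE replicate 2), and SUSD6 in KOA in 2 (0.0647, without KOA_EX replicate 2). PIDD1 was lost without KOA_EX replicate 1 in KOA (0.069) and without iR_WTA_D3_EX replicate 3 in iR_WTA_D3 (0.064). TRIAP1 was lost in iR_KOA_D3 without iR_KOA_D3_NE replicate 2 (0.0679), and in iR_WTA_D3 without iR_WTA_D3_EX replicate 1 (0.068) or iR_WTA_D3_NE replicate 3 (0.0633). The FDXR call in iR_KOA was also lost under 4 of the other processing alternatives described below.

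MDM2, the ligase that degrades p53, was called lower with exposure in some backgrounds. It measured 8.16, 9.14 and 9.81 FPKM in KOA_EX, against 11.9, 11.2 and 11.6 in KOA_NE. In iR_WTA it had 8.47, 8.68 and 10.2 FPKM with exposure, against 11.0, 13.2 and 12.2 without, so in both backgrounds the exposed libraries lay below. It fell by 0.33 in KOA (adjusted p = 0.00355), 0.23 in iR_KOA (0.0413) and 0.38 in iR_WTA (0.00181), SE 0.087. In the D3 backgrounds the differences were 0.10 and 0.12 and did not pass the threshold. The iR_KOA call was lost without iR_KOA_EX replicate 1 (log2 difference -0.12, adjusted p = 0.307), without iR_KOA_NE replicate 1 (0.12) and without iR_KOA_NE replicate 2 (0.124). It was also lost under 4 of the other processing alternatives described below, and the MDM2 libraries of iR_KOA_EX and iR_KOA_NE overlapped. PPM1D, the phosphatase that removes activating phosphates from p53, rose in KOA (0.31) and iR_WTA_D3 (0.45).

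PLK2, a polo-like kinase of the G1 and S phases, had the largest rise among the members in KOA. It measured 85.4, 88.3 and 85.2 FPKM in KOA_EX, against 53.1, 51.6 and 53.4 in KOA_NE (log2 difference 0.70, SE 0.039, adjusted p = 2.29e-13). In iR_WTA it measured 84.4, 82.1 and 90.5 FPKM with exposure, against 93.2, 91.9 and 97.0 without, a difference of -0.13 (adjusted p = 0.0114). PLK2 thus lay above the unexposed libraries in KOA and below them in iR_WTA, and it rose in iR_KOA (0.28), iR_KOA_D3 (0.50) and iR_WTA_D3 (0.23). Exposed PLK2 group means lay between 74.2 and 88.3 FPKM, and the unexposed ones between 52.0 and 94.0. The fall in iR_WTA was lost without iR_WTA_EX replicate 1 (adjusted p = 0.0502) or replicate 2 (0.081), without iR_WTA_NE replicate 3 (0.0674), with quantile normalization (0.0595) and with the 2 groups fitted alone (0.0566). The exposure difference of PLK2 was larger in knockout than in wild-type cells by 0.41 with iR (SE 0.055, adjusted p = 0.000153) and by 0.28 with iR and D3 (adjusted p = 0.00519). It was the sole member past the threshold in each of these tests of exposure by genotype (3.23% of the 31), beside 0.538% of all genes with iR (0.273% up and 0.265% down) and 2.38% with iR and D3 (1.24% up and 1.14% down).

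BTG2, an antiproliferative regulator of mRNA decay, fell in the iR backgrounds without D3. It measured 2.68, 2.42 and 3.25 FPKM in iR_KOA_EX, against 4.93, 5.41 and 5.61 in iR_KOA_NE, and 2.55, 2.83 and 3.45 in iR_WTA_EX, against 4.86, 5.21 and 5.27 in iR_WTA_NE. The groups were well apart in both (log2 differences -0.74 and -0.64, SE 0.105, adjusted p = 6.94e-06 and 5.53e-05). In iR_WTA_D3 it had 5.27, 3.7 and 3.5 FPKM with exposure, against 3.2, 3.26 and 3.41 without, and the difference of 0.25 did not pass (adjusted p = 0.0591). Of the last members, PLK3, a stress kinase, rose in iR_WTA (0.21) and iR_WTA_D3 (0.20), SESN1 rose in iR_WTA_D3 (0.32), and ZMAT3, an RNA-binding regulator of splicing, fell in KOA (-0.42). Both PLK3 calls were lost in 4 of 6 fits that left out 1 library, at most without iR_WTA_NE replicate 3 (adjusted p = 0.212) and without iR_WTA_D3_EX replicate 2 (0.193).

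AEN, a nuclease that enhances apoptosis, was called with opposite signs. It measured 13.6, 12.8 and 12.4 FPKM in iR_KOA_D3_EX, against 9.93, 10.5 and 10.1 in iR_KOA_D3_NE (log2 difference 0.32), and 14.1, 14.3 and 15.6 in iR_WTA_EX, against 17.2, 16.3 and 17.7 in iR_WTA_NE (-0.20). Neither pair of groups overlapped. In iR_WTA_D3 it rose by 0.17, with overlapping libraries, and in iR_WTA the call was lost without iR_WTA_EX replicate 1 (adjusted p = 0.0559) or iR_WTA_NE replicate 3 (0.0502). The iR_WTA_D3 call was lost without iR_WTA_D3_EX replicate 1 (log2 difference 0.12, adjusted p = 0.141), iR_WTA_D3_EX replicate 2 (0.0768), iR_WTA_D3_NE replicate 1 (0.0578) or iR_WTA_D3_NE replicate 2 (0.0674), and with the groups fitted alone (0.112).

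Whether D3 changed the response to exposure was tested directly, as the exposure difference with D3 minus that without. In knockout cells with iR, 5 members passed (16.1%, against 4.14% of all genes, 1.74% up and 2.40% down). AEN (0.45, SE 0.083, adjusted p = 0.00206), BTG2 (0.59, adjusted p = 0.0257), PLK2 (0.23, adjusted p = 0.0194) and TIGAR (0.28, adjusted p = 0.0486) were shifted up with D3, and XPC was shifted down (-0.26, adjusted p = 0.0344). In wild-type cells with iR, 6 passed (19.4%, against 1.67% of all genes, 0.753% up and 0.918% down), all shifted up: BTG2 (0.89, SE 0.149, adjusted p = 0.00167), MDM2 (0.50, SE 0.123, adjusted p = 0.0365), SESN1 (0.41), AEN (0.38), PLK2 (0.36) and TIGAR (0.31). Several of these calls were lost in fits that left out 1 library. In wild-type cells the MDM2 call was lost in 9 of 12 fits that left out 1 library (highest adjusted p = 0.124), SESN1 in 11 (0.111) and TIGAR in 10 (0.144), while AEN was lost in 3 (0.0578) and BTG2 and PLK2 in none. In knockout cells TIGAR was lost in 9 of 12 such fits (highest adjusted p = 0.151), XPC in 8 (0.093), BTG2 in 4 (0.0732), PLK2 in 3 (0.0684) and AEN in none.

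The same test for iR in knockout cells called 5 members (16.1%, against 5.08% of all genes, 1.66% up and 3.42% down). The exposure difference was lower with iR for BTG2 (-0.66, SE 0.149, adjusted p = 0.00716), PLK2 (-0.43, SE 0.055, adjusted p = 1.15e-05) and GDF15 (-0.32, SE 0.075, adjusted p = 0.0104), and higher for XPC (0.31, SE 0.070, adjusted p = 0.00747) and ZMAT3 (0.39, SE 0.108, adjusted p = 0.0319). XPC measured 12.6, 14.8 and 13.7 FPKM in KOA_EX, against 16.7, 17.0 and 17.1 in KOA_NE, while in iR_KOA it had 13.0, 13.1 and 12.8 FPKM with exposure, against 12.6, 12.5 and 13.2 without. The XPC libraries were thus apart without iR and overlapped with it. The ZMAT3 call was lost in 7 of 12 fits that left out 1 library (highest adjusted p = 0.107).

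**Figure D3:**
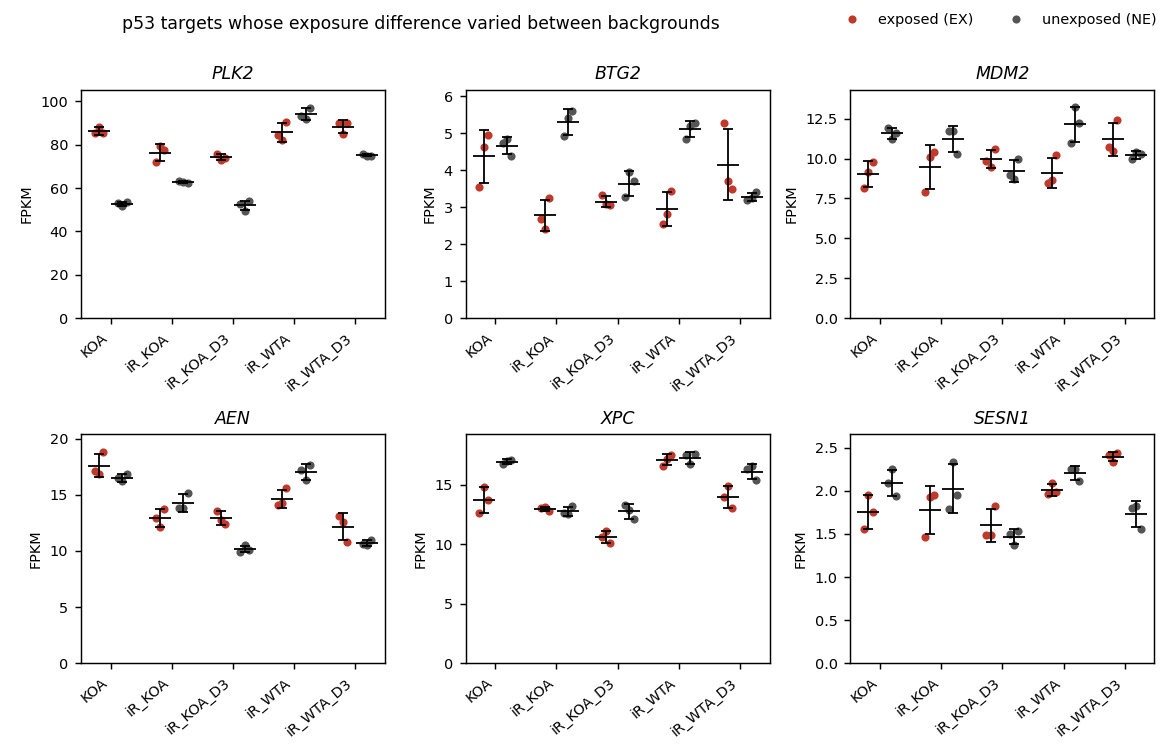
FPKM of 6 p53 targets whose exposure difference passed a test of difference between backgrounds; points are libraries (red exposed, grey unexposed), bars the mean and SD of 3 libraries, and the x axis gives the background. PLK2 is far higher with exposure in KOA and lower in iR_WTA, and BTG2 is lower with exposure in iR_KOA and iR_WTA but not in iR_WTA_D3.

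Knockout of RSRP1 was compared with the wild type in unexposed cells, with iR and with iR and D3. Most called targets were lower in the knockout, and so were most of all called genes. With iR, 5 of the 31 were higher and 13 lower (58.1%, against 65.3% of all genes, 27.9% higher and 37.4% lower), and with iR and D3, 7 were higher and 16 lower (74.2%, against 69.1%, 24.8% higher and 44.3% lower). The shares called were near those of all genes. The median log2 difference of the 31 was -0.105 with iR and -0.142 with iR and D3, beside -0.056 and -0.107 for all genes. With median-of-ratios scaling the median of all genes with iR and D3 was -0.025, that of the 31 -0.080, 8 members were higher and 14 lower, and 47.7% of the called genes were higher in the knockout, against 35.9% as deposited. The 2 comparisons share no library. In both of them 4 members were higher (PERP, FDXR, RRM2B and GDF15), against 21.2% of all genes, and 12 were lower, against 33.3%.

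PERP showed the largest rise in the knockout. It measured 112, 116 and 123 FPKM in iR_KOA_D3_NE, against 66.3, 63.7 and 66.8 in iR_WTA_D3_NE (log2 difference 0.82, SE 0.079, adjusted p = 1.12e-09). With iR alone it had 112, 112 and 88.4 FPKM in iR_KOA_NE, against 59.5, 70.3 and 58.5 in iR_WTA_NE (0.72, adjusted p = 1.62e-08). Over all 18 knockout libraries PERP ran from 88.4 to 141 FPKM, above the 56.5 to 81.8 of the 12 wild-type libraries. GDF15 had 45.5, 46.6 and 49.5 FPKM in iR_KOA_NE, against 29.7, 28.0 and 28.5 in iR_WTA_NE (0.70, SE 0.053, adjusted p = 1.56e-11). With D3 the GDF15 difference shrank to 31.1, 31.9 and 31 FPKM in iR_KOA_D3_NE, against 28.6, 28.2 and 27.2 in iR_WTA_D3_NE (0.16, adjusted p = 0.0118), a call lost without iR_WTA_D3_NE replicate 3 (0.13, adjusted p = 0.0518). FDXR was higher by 0.32 in each comparison, and RRM2B by 0.30 and 0.44. TIGAR was higher with iR alone (0.15), a call lost in 4 of 6 fits that left out 1 library (highest adjusted p = 0.14, without iR_KOA_NE replicate 2). With D3, EDA2R (0.30), SPATA18 (0.17) and SUSD6 (0.15) were also higher. The SPATA18 call was lost without iR_WTA_D3_NE replicate 3 (adjusted p = 0.0775), and that of SUSD6 in 4 of 6 such fits (0.125, without iR_WTA_D3_NE replicate 3).

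Among the lower members, TNFRSF10D measured 15.5, 15.9 and 16.8 FPKM in iR_KOA_NE, against 28.2, 27.3 and 27.1 in iR_WTA_NE (log2 difference -0.74, SE 0.065, adjusted p = 2.33e-10), and the difference with D3 was -0.69. TP53INP1 measured 4.06, 4.16 and 4.75 FPKM in iR_KOA_D3_NE, against 7.59, 7.50 and 7.88 in iR_WTA_D3_NE (-0.70, SE 0.075, adjusted p = 7.62e-09), and differed by -0.58 without D3. The libraries of these genes were wide apart. PLK2 had 63.1, 62.8 and 62.5 FPKM in iR_KOA_NE, against 93.2, 91.9 and 97.0 in iR_WTA_NE (-0.57, SE 0.039, adjusted p = 1.58e-12), and -0.53 with D3. DDB2 had 18.5, 18.3 and 18.4 FPKM in iR_KOA_D3_NE, against 31.4, 31.7 and 30.3 in iR_WTA_D3_NE (-0.73, SE 0.063, adjusted p = 1.76e-10), and -0.48 without D3.

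CCNG1, the cyclin that recruits a phosphatase to MDM2, had 51.1, 52.8 and 55.2 FPKM in iR_KOA_D3_NE, against 85.6, 81.8 and 88.6 in iR_WTA_D3_NE (log2 difference -0.68, SE 0.104, adjusted p = 2.82e-06). Without D3 the difference was -0.29, a call lost without iR_KOA_NE replicate 3 (-0.16, adjusted p = 0.18) or iR_WTA_NE replicate 2 (-0.21, adjusted p = 0.101). GADD45A was lower with D3 (6.39, 7.79 and 6.99 FPKM in iR_KOA_D3_NE, against 10.2, 10.4 and 11.0 in iR_WTA_D3_NE, -0.52) and differed by -0.18 without it (adjusted p = 0.0886). The other members lower in both comparisons were FAS, TNFRSF10A, TNFRSF10B, PHLDA3, XPC, POLH and PLK3, with differences of -0.44 to -0.12. FAS with iR overlapped between genotypes and lost its call in 3 of 6 fits that left out 1 library (highest adjusted p = 0.298, without iR_KOA_NE replicate 3). It also lost this call under 4 of the other processing alternatives described below. PHLDA3 with D3 lost its call without iR_KOA_D3_NE replicate 3 (0.0891) or iR_WTA_D3_NE replicate 3 (0.0743) and with median-of-ratios scaling (0.17). AEN was lower with iR alone (-0.24), and PIDD1 (-0.45), APAF1 (-0.26) and TP53I3 (-0.23) with iR and D3 alone. TNFRSF10B differed by -0.12 with D3 as deposited and by -0.02 with median-of-ratios scaling (adjusted p = 0.615). MDM2 differed by -0.11 and -0.13, and neither passed the threshold.

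D3 lowered most of the called p53 targets in unexposed cells with iR. In knockout cells 2 were higher and 20 lower with D3 (71.0%, against 53.7% of all genes, 19.2% higher and 34.5% lower), and in wild-type cells 2 were higher and 16 lower (58.1%, against 48.7%, 22.3% higher and 26.3% lower). Lower members made up 64.5% of the 31 in knockout cells and 51.6% in wild-type cells. The median log2 difference of the 31 was -0.265 in knockout and -0.172 in wild-type cells, beside -0.059 and -0.015 for all genes. With median-of-ratios scaling these medians were -0.171 and -0.135 for the 31 and 0.018 and 0.016 for all genes, and the members higher and lower were 5 and 17 in knockout cells and 2 and 13 in wild-type cells. Of all called genes, 35.7% were higher with D3 in knockout cells as deposited and 53.9% after that scaling. In both genotypes 14 members were lower, against 21.3% of all genes, and TP53INP1 and SUSD6 were higher, against 12.9%.

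DDB2 fell the most with D3. It measured 18.5, 18.3 and 18.4 FPKM in iR_KOA_D3_NE, against 35.6, 35.1 and 40.2 in iR_KOA_NE (log2 difference -0.97, SE 0.063, adjusted p = 1.92e-12), and 31.4, 31.7 and 30.3 in iR_WTA_D3_NE, against 53.4, 48.9 and 53 in iR_WTA_NE (-0.71, adjusted p = 1.2e-09). AEN followed in wild-type cells, with 10.6, 10.5 and 11.0 FPKM in iR_WTA_D3_NE, against 17.2, 16.3 and 17.7 in iR_WTA_NE (-0.63, SE 0.058, adjusted p = 2.72e-09), and it differed by -0.45 in knockout cells. No library of these groups overlapped. BTG2 had 3.2, 3.26 and 3.41 FPKM in iR_WTA_D3_NE, against 4.86, 5.21 and 5.27 in iR_WTA_NE (-0.51, SE 0.105, adjusted p = 0.000266), and differed by -0.45 in knockout cells.

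The 4 genes with a p53 element in a promoter window, MDM2, FAS, AEN and DDB2, were all among the 14 lower with D3 in both genotypes. With exposure they went different ways. Members in which no element was found were also among the 14, and a link between the element and D3 was not tested. FAS differed by -0.44 and -0.28 in knockout and wild-type cells with D3. MDM2 differed by -0.26 and -0.23, but its call was lost in 4 of 6 fits that left out 1 library in knockout cells (highest adjusted p = 0.0683), in 5 of 6 in wild-type cells (0.162), and in both with median-of-ratios scaling (0.102 and 0.065). The others lower in both were PPM1D, TNFRSF10A, TNFRSF10B, FDXR, TRIAP1, POLH, PLK2, SESN1 and TIGAR. TNFRSF10B lost its call in knockout cells with that scaling (-0.07, adjusted p = 0.16), as did TIGAR in wild-type cells (-0.11, adjusted p = 0.0964). TIGAR in wild-type cells was also lost in 3 of 6 fits that left out 1 library (highest adjusted p = 0.155, without iR_WTA_NE replicate 2), PPM1D in knockout cells without iR_KOA_D3_NE replicate 1 (0.086), and SESN1 in wild-type cells without iR_WTA_D3_NE replicate 3 (0.0558).

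GADD45A was lower with D3 in knockout cells, with 6.39, 7.79 and 6.99 FPKM in iR_KOA_D3_NE against 10.6, 12.3 and 9.36 in iR_KOA_NE (log2 difference -0.54, SE 0.091, adjusted p = 1.78e-05). SUSD6, a membrane protein with a sushi domain, rose to 5.54, 5.85 and 5.66 FPKM in iR_KOA_D3_NE, against 3.83, 3.49 and 3.86 in iR_KOA_NE (0.50, SE 0.060, adjusted p = 1.1e-07), and by 0.26 in wild-type cells. TP53INP1 rose by 0.32 in knockout and 0.44 in wild-type cells. CCNG1 (-0.40), PIDD1 (-0.31), APAF1 (-0.24) and TP53I3 (-0.22) passed the threshold in knockout cells but not in wild-type cells, and EDA2R (-0.21) and SPATA18 (-0.13) in wild-type cells but not in knockout cells. Of these 6, APAF1 alone passed the test of D3 by genotype given below. The SPATA18 call was lost in 3 of 6 fits that left out 1 library (highest adjusted p = 0.277, without iR_WTA_D3_NE replicate 3).

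GDF15 depended on genotype. It measured 31.1, 31.9 and 31 FPKM in iR_KOA_D3_NE, against 45.5, 46.6 and 49.5 in iR_KOA_NE (log2 difference -0.58, SE 0.053, adjusted p = 1.21e-09), and differed by -0.03 in wild-type cells. The test of D3 by genotype gave -0.54 for GDF15 (SE 0.075, adjusted p = 8.4e-06), -0.26 for APAF1 (SE 0.083, adjusted p = 0.0288) and 0.24 for SUSD6 (SE 0.084, adjusted p = 0.0487), which makes 3 members (9.68%, against 17.5% of all genes, 5.19% up and 12.3% down). With median-of-ratios scaling 47.9% of the genes called in this test were shifted up, against 29.6% as deposited, and the members were 3 up and 1 down. In fits that left out 1 library, the SUSD6 call was lost in 9 of 12 (highest adjusted p = 0.149) and the APAF1 call in 5 of 12 (0.105). The knockout and D3 comparisons without exposure share the iR_KOA_NE, iR_WTA_NE, iR_KOA_D3_NE and iR_WTA_D3_NE libraries, so their values are not independent of each other.

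**Figure D4:**
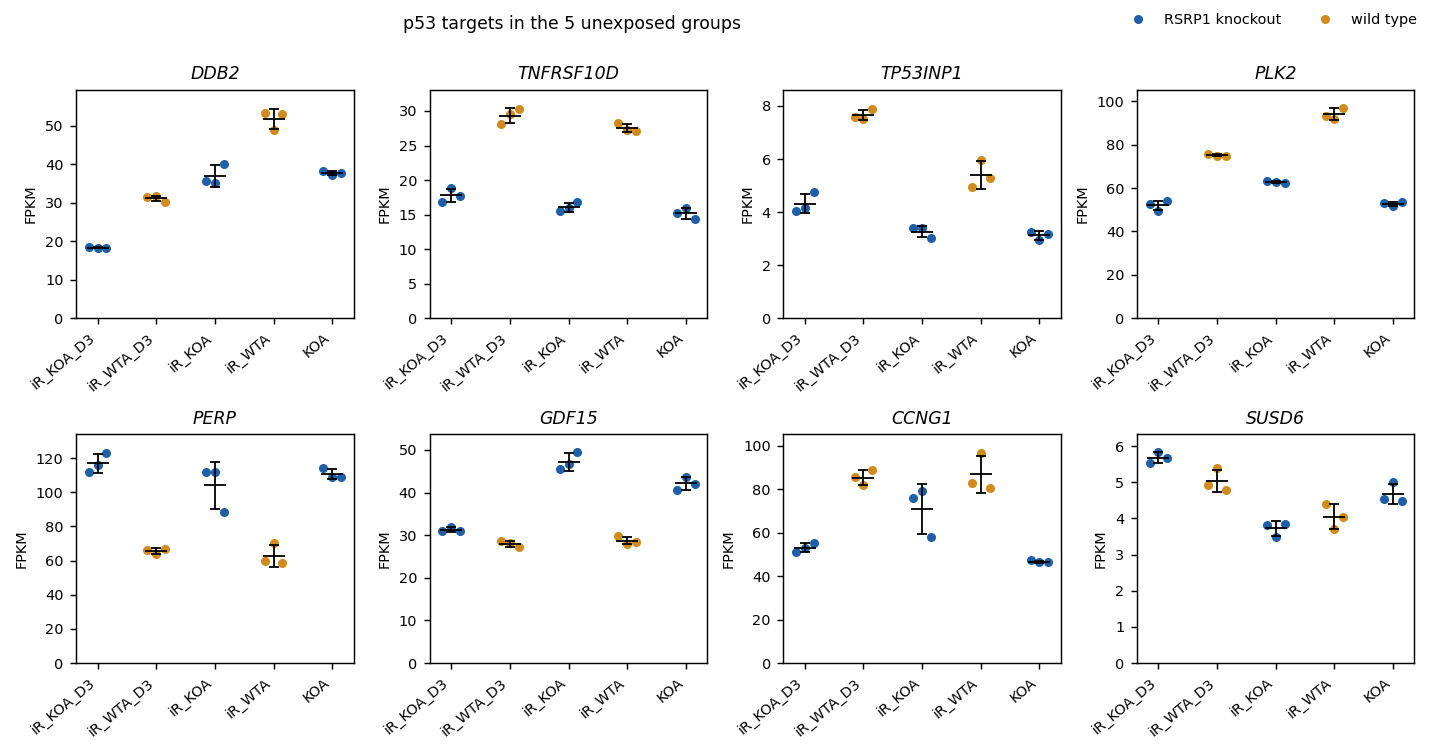
FPKM of 8 p53 targets in the 5 unexposed groups; points are libraries (blue RSRP1 knockout, orange wild type), bars the mean and SD of 3 libraries, and the x axis gives the group. DDB2, TNFRSF10D, TP53INP1 and PLK2 lie lower and PERP higher in knockout than in matched wild-type groups, and DDB2 lies lower with D3 in both genotypes.

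iR in unexposed knockout cells had 3 higher and 9 lower members (38.7%, against 38.5% of all genes, 18.7% higher and 19.8% lower), a share like that of all genes. RSRP1 itself measured 7.63, 7.95 and 7.45 FPKM in iR_KOA_NE, against 2.12, 2.7 and 2.46 in KOA_NE. GPX2 averaged 444 FPKM in iR_KOA_NE and 706 in KOA_NE. The part of these differences in the iR results was not tested. CCNG1 rose to 76.1, 79.1 and 57.9 FPKM in iR_KOA_NE, against 47.2, 46.3 and 46.5 in KOA_NE (log2 difference 0.58, SE 0.104, adjusted p = 9.48e-05). All 3 iR libraries lay above, 1 of them less than the others. PLK2 (0.25) and GDF15 (0.16) were the other members to rise, and GDF15 lost its call without KOA_NE replicate 1 (adjusted p = 0.0813), KOA_NE replicate 3 (0.0502) or iR_KOA_NE replicate 3 (0.0868). XPC (-0.38), POLH (-0.35), EDA2R (-0.29), PIDD1 (-0.29), SUSD6 (-0.26), TP53I3 (-0.23), AEN (-0.20), TNFRSF10B (-0.19) and TNFRSF10A (-0.17) fell. TNFRSF10A lost its call in 3 of 6 fits that left out 1 library (highest adjusted p = 0.116, without KOA_NE replicate 1).

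**Figure D5:**
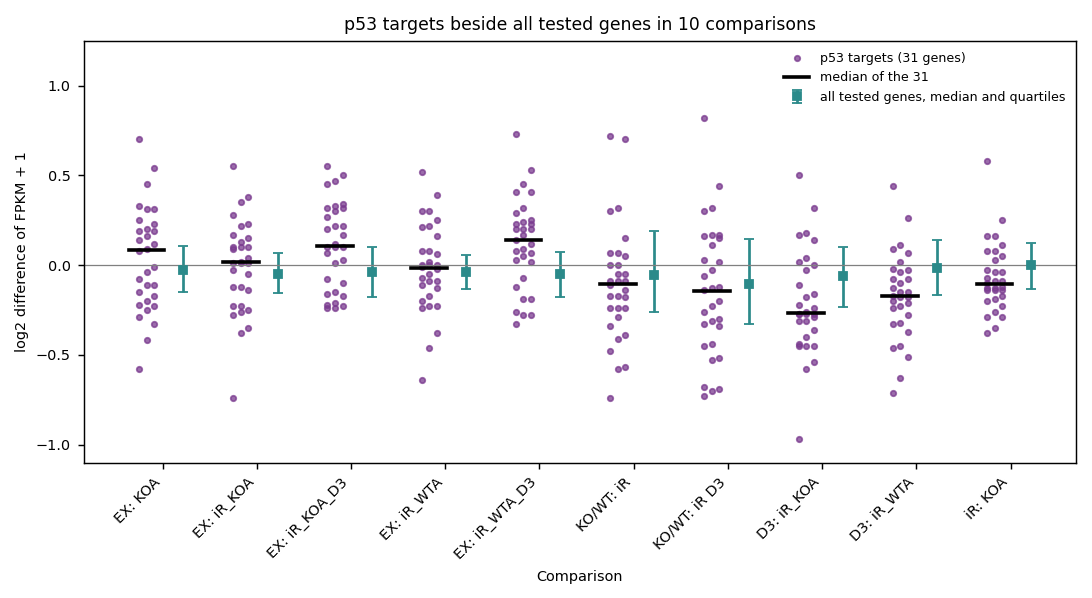
Log2 differences of FPKM + 1 for the 31 p53 targets (points, median as a bar) beside the median and quartiles of all 12086 genes tested (squares), in 10 comparisons on the x axis. The median of the 31 is above that of all genes in the 5 exposure comparisons, and below it in the 2 D3 comparisons, at -0.265 and -0.172 against -0.059 and -0.015.

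Regulators of p53 and other p53 targets were read from lists kept apart from the 31. Of 15 regulators, 1 to 3 rose and 1 to 5 fell with exposure, depending on the background. Over all genes tested, 11.4% to 18.8% rose and 17.2% to 27.8% fell in these comparisons. KAT5, the acetyltransferase TIP60, fell in all 5 (-0.50 to -0.23), and MDM4, the MDM2 relative that holds p53 inactive, rose in KOA (0.23) and iR_WTA_D3 (0.24). In the unexposed knockout with iR, 2 of the 15 were higher and 10 lower, beside 27.9% and 37.4% of all genes. With iR and D3, 0 were higher and 9 lower, beside 24.8% and 44.3%. Among those lower, HIPK2, a kinase that phosphorylates p53, differed by -0.96 with iR and -0.90 with iR and D3.

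Of the other 28 p53 targets tested, 5 to 10 rose and 4 to 7 fell with exposure, beside the shares of all genes given above for exposure. CDKN1A, the cell cycle inhibitor p21, rose in all 5 backgrounds (0.25 in KOA, 0.48 in iR_KOA, 0.72 in iR_KOA_D3, 0.43 in iR_WTA and 0.67 in iR_WTA_D3, SE 0.048). SESN2, a sestrin that ATF4 also raises, rose in all 5 (0.28 to 0.97), and so did ACER2, an alkaline ceramidase (0.36 to 0.96). ORAI3 and CES2 went the other way, with every exposed library below every unexposed one in all 5 backgrounds. ORAI3 averaged 10.5 FPKM in KOA_EX and 18.5 in KOA_NE, and 13.5 in iR_KOA_D3_EX and 26.9 in iR_KOA_D3_NE. CES2 averaged 10.2 FPKM in KOA_EX and 14.0 in KOA_NE, and 17.3 in iR_WTA_EX and 21.1 in iR_WTA_NE. BAX, the pore-forming apoptosis effector, passed the threshold in none of the exposure comparisons, and BBC3, the apoptosis activator PUMA, fell in KOA (-0.28) and iR_KOA_D3 (-0.31). PMAIP1, the apoptosis activator NOXA, rose in KOA (0.66), iR_KOA (0.26), iR_KOA_D3 (0.29) and iR_WTA (0.28), and differed by 0.04 in iR_WTA_D3. With D3 in unexposed cells, 8 of the 28 were higher and 12 lower in the knockout, and 7 and 11 in the wild type. Over all genes, 19.2% were higher and 34.5% lower in the knockout, and 22.3% and 26.3% in the wild type. BAX was lower with D3 by 0.39 in knockout and 0.45 in wild-type cells. CDKN1A averaged 57.9 FPKM in iR_KOA_D3_NE and 70.4 in iR_KOA_NE, and 71.5 in iR_WTA_D3_NE and 84.9 in iR_WTA_NE. In the same order of groups, E2F7 averaged 1.33 and 3.5 FPKM, and 2.16 and 3.4. SFN averaged 27.8 and 47.4 FPKM, and 35 and 53.3. ORAI3 was higher, with 26.9 FPKM in iR_KOA_D3_NE and 16.5 in iR_KOA_NE, and 26.6 in iR_WTA_D3_NE and 15.5 in iR_WTA_NE.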

How the data were processed

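FPKM values per gene were made by the authors and used as deposited; fastp, HISAT2, HTSeq and the build GRCh38 are named in the submitters' processing notes, without versions or roles. No source used here gives the annotation or the strand setting. Whole reads could be recovered for all 26801 genes (tolerance 0.01), with 34620432 to 38939336 reads a library and 161 to 24191 a member and library. Another 6 value columns matched no sample and were not used. Genes that reached 1 FPKM in 3 or more libraries were kept (12086), and their log2(FPKM + 1) was fitted in limma 3.58.1 (R 4.3.3) with 10 group means, moderated with a trend (20 residual degrees of freedom). Adjustment was by Benjamini-Hochberg within each of 16 comparisons. The steps were tested on simulated data in which few genes were changed, in KOA_EX alone. That setting lacks the broad differences of these data, so it does not show how the fit handles them. Members past the threshold whose log2 difference was 0.5 or larger in size, up to 8 a comparison, are given by library, others by differences, ranges or counts. Another listed gene is not reported here. The members and lists were chosen with earlier results of these data known. Same-numbered exposed and unexposed libraries of iR_KOA_D3 deviated together (r from 0.115 to 0.168, all 3 over 0.1). Those of KOA did so more weakly (0.065 to 0.119). Differently numbered libraries reached 0.314 in iR_KOA, so an r of this size does not show that the numbers mark pairs. Alternatives were another pseudocount, filter, scaling, the compared groups alone, a replicate block and leaving out each library. In tests of exposure the replicate block paired the same-numbered exposed and unexposed libraries of a background. In the other comparisons it was the replicate number.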

Additional observations from a re-analysis of the deposited data

Results flagged for a closer look

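These 21 results are given because the test of the difference between backgrounds or genotypes passed the threshold (limma, adjusted over all genes). The exposure difference of PLK2 was larger in knockout than in wild-type cells with iR (0.41, SE 0.055, adjusted p = 0.000153) and with iR and D3 (0.28, SE 0.055, adjusted p = 0.00519).

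With D3 minus without D3, the exposure difference in iR knockout cells changed for AEN by 0.45 (SE 0.083, adjusted p = 0.00206), BTG2 by 0.59 (SE 0.149, 0.0257), PLK2 by 0.23 (SE 0.055, 0.0194), TIGAR by 0.28 (SE 0.081, 0.0486) and XPC by -0.26 (SE 0.070, 0.0344). In iR wild-type cells it changed for MDM2 by 0.50 (SE 0.123, adjusted p = 0.0365), AEN by 0.38 (SE 0.083, 0.0188), BTG2 by 0.89 (SE 0.149, 0.00167), PLK2 by 0.36 (SE 0.055, 0.000655), SESN1 by 0.41 (SE 0.102, 0.0389) and TIGAR by 0.31 (SE 0.081, 0.0459).

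With iR minus without iR in knockout cells, it changed for XPC by 0.31 (SE 0.070, adjusted p = 0.00747), BTG2 by -0.66 (SE 0.149, 0.00716), PLK2 by -0.43 (SE 0.055, 1.15e-05), ZMAT3 by 0.39 (SE 0.108, 0.0319) and GDF15 by -0.32 (SE 0.075, 0.0104). The D3 difference in knockout minus that in wild-type cells was -0.26 for APAF1 (SE 0.083, adjusted p = 0.0288), 0.24 for SUSD6 (SE 0.084, 0.0487) and -0.54 for GDF15 (SE 0.075, 8.4e-06).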

How the results depend on the processing

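Of the 201 member values past the threshold, 198 stayed past it with a pseudocount of 0.1 and 176 with no filter on low values. Under quantile normalization 181 stayed, and under median-of-ratios scaling 188. With the compared groups fitted alone 175 stayed, and with the replicate block 191. In at least 1 fit that left out a library, 52 were lost. None of the 201 changed sign under these settings. The count for exposure by D3 in iR knockout cells was 5 and fell to 2 without the filter and 2 with the groups alone, and ran from 1 to 5 with a library left out. In iR wild-type cells it was 6, with 3, 3 and a range of 2 to 8 under the same settings. With a library left out the counts ran from 1 to 2 for exposure by genotype with iR and D3, from 4 to 6 for exposure by iR and from 1 to 5 for D3 by genotype. They ran from 15 to 18 in KOA, 13 to 15 in iR_KOA, 14 to 17 in iR_KOA_D3, 10 to 16 in iR_WTA and 17 to 20 in iR_WTA_D3 for exposure, 16 to 18 and 20 to 24 for knockout, 21 to 23 and 15 to 18 for D3, and 10 to 12 for iR. In KOA, r was 0.087, 0.065 and 0.119 for same-numbered pairs and ran from -0.103 to 0.027 for differently numbered ones. Same-numbered pairs ran from -0.239 to 0.259 in iR_KOA, -0.170 to 0.042 in iR_WTA and -0.090 to 0.306 in iR_WTA_D3. Differently numbered pairs reached 0.314 in iR_KOA, 0.141 in iR_WTA and 0.156 in iR_WTA_D3. The replicate block gave 9 members up and 10 down in KOA, and over all comparisons 10 calls were lost with it: APAF1 and RRM2B in KOA, GADD45A in iR_KOA and iR_KOA_D3, TIGAR by D3 in both genotypes, MDM2 by D3 in wild-type cells, ZMAT3 by iR, SPATA18 with D3 in wild-type cells and SUSD6 in D3 by genotype. The cause of these changes was not tested.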
